A study of Mus musculus with 4 samples.

Results

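The genes described here were 36 endothelial and vessel genes, chosen by symbol from the table of read counts, which listed 24527 genes. They encode junction and surface proteins of endothelial cells, receptors and ligands that steer vessel growth, endothelial transcription factors, the endothelial nitric oxide synthase and 2 markers of pericytes, the cells that wrap small vessels. All 36 had a row, and all 36 reached 10 reads in at least 1 library, a minimum that 16994 of all genes reached.

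RNA was sequenced from B16F10 cells, a mouse melanoma line, under 4 conditions with 1 library each, and the labels give every sample the genotype WT. The in vivo tumor library came from subcutaneous tumors grown in both flanks of 1-year-old female C57BL/6 mice, and the sources used here do not say whether tumors were pooled. The study's methods count several RNA isolations without saying how they relate to the single library of each condition. The spheroid library came from hanging-drop spheroids of B16F10 and NIH/3T3 cells, the latter a mouse embryonic fibroblast line, and the 2D co-culture library from the same pair of lines grown flat. The 2D monoculture library held B16F10 cells alone and served as the control. The study's methods describe a line carrying a green fluorescent protein and the sorting of green cells from the cultures. They also speak of cells sorted from tumors, and the design text calls the tumor cells sorted too. The label of the tumor library instead names snap frozen tumor. In a bulk library, fewer cells of a type and less RNA per cell cannot be told apart.

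Endothelial cells line all blood and lymphatic vessels and are held together by cadherin and claudin junctions. Growing tumors recruit them with ligands of the vascular endothelial growth factor (VEGF) family, which act on the receptors Kdr, Flt1 and Flt4, while angiopoietins acting on Tek set how firmly pericytes cover the new vessels. ETS factors such as Erg, together with the SOX factors Sox7, Sox17 and Sox18, control much of endothelial transcription. B16F10 cells are of the melanocyte lineage, and neither they nor NIH/3T3 fibroblasts are endothelial.

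With 1 library per condition no difference has a replicate check, so no test was made. Levels are given as CPM (read counts relative to the library's depth) scaled by TMM, a factor that evens out composition between libraries. Intervals are exact 95% binomial intervals of the counts and cover counting error only. A gene was counted as higher or lower when its ratio exceeded 2-fold, with counts under 3 raised to 3, the number that a count of 0 allows. The libraries held between 118896900 and 150028663 reads, so 3 reads corresponded to between 0.0185 and 0.0262 CPM. Log2 ratios across genes followed GC content, with a Spearman correlation of -0.52 for the tumor against the spheroids and 0.44 for the spheroids against the monoculture over the 12466 genes whose mean reached 1 CPM. The genes compared share their libraries, and no cause of that relation was tested.

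Promoter windows, running from 250 bases before to 50 after a transcript's start, were held for 17 of the 36 genes, in 21 windows. They are taken from RefSeq on GRCm38.p6, the assembly that mm10 denotes. The windows of Tie1 and Robo4 are shown as examples of genes close to unread in the cultures. Those of Eng and Egfl7, in the first of its 3 windows, are shown as the members most abundant there per length. Capitals mark the ETS words, CCGGAAG or AGGAAG on the strand printed and CTTCCGG or CTTCCT on the other. Neither word contains the other.
Tie1 (chr4:118489800-118490099, minus strand): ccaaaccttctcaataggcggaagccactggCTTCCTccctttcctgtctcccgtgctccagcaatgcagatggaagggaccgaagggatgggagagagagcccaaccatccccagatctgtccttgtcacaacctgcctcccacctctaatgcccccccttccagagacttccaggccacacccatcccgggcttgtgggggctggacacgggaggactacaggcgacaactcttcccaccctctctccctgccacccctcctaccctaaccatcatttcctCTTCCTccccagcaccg
Robo4 (chr9:37401722-37402021, plus strand): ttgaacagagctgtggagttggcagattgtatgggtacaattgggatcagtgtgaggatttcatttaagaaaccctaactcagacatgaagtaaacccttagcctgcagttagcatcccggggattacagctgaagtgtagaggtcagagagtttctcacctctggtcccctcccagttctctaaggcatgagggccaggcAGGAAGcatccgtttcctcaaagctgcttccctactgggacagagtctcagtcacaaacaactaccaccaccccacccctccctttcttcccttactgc
Eng (chr2:32646345-32646644, plus strand): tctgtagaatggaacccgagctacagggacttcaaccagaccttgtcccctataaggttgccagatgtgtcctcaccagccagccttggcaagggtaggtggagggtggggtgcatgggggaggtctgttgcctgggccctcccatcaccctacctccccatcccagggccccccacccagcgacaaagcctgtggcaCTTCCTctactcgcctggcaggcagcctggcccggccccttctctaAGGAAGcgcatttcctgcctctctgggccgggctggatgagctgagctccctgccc
Egfl7 (chr2:26580833-26581132, plus strand): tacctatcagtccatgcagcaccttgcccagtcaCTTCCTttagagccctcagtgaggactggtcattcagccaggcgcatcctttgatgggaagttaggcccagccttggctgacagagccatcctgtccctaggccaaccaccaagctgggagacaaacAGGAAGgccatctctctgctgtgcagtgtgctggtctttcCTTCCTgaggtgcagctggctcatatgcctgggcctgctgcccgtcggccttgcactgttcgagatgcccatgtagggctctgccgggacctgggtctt
An ETS word stood in 10 of the 21 windows, those of 9 genes, against 41.2% of all 32851 windows in the table. The windows printed all hold one and are not typical of the set. Clec14a, Cldn5, Kdr and Esm1, also close to unread in the cultures, had no ETS word in their windows. The first Egfl7 window held 3 matches and its others 2 and 0. It was held by 5 of the 13 windows of genes under 1 CPM in every culture and by 5 of the 8 windows of genes above that level in a culture. SOX words (ACAAAG or ACAATG, either strand) stood in 6 of the 21 windows against 28.6% of all, and the GATA word AGATAA in 3 of 21 against 11.2%. These are matches of letters in a short window and not sites of binding.

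The tumor library carried the endothelial genes at moderate levels, and most of them were nearly absent from the 3 cultures. Against the 2D monoculture, 33 of the 36 genes were over 2-fold higher in the tumor, where 27.3% of the 16994 genes were, and 1 gene was lower, against 18.1%. Against the 2D co-culture 31 genes were higher (31.9% of all genes) and 2 were lower (18.4% of all genes). Against the spheroids 32 genes were higher (37.4% of all genes) and 1 was lower (24.9% of all genes). With total counts in place of TMM, the shares of all genes higher and lower in the tumor were 30.9% and 12.7% against the monoculture, 36.2% and 12.4% against the co-culture, and 43.2% and 18.5% against the spheroids. The median log2 ratio of the 36 genes was 7.49 against the monoculture, 7.30 against the co-culture and 8.15 against the spheroids, beside medians of 0.07, 0.11 and 0.25 over all genes tested. The tumor was the highest of the 4 libraries for 31 genes, whereas it was so for 38.8% of all genes. The 5 exceptions were Eng, Egfl7, Ramp2 and Nos3, highest in the spheroids, and Cspg4, highest in the co-culture. With total counts in place of TMM, Nos3 too was highest in the tumor. With a correction for GC content and length, the tumor was highest for Egfl7, Ramp2, Nos3 and Cspg4 and the monoculture for Eng.

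**Figure D1:**
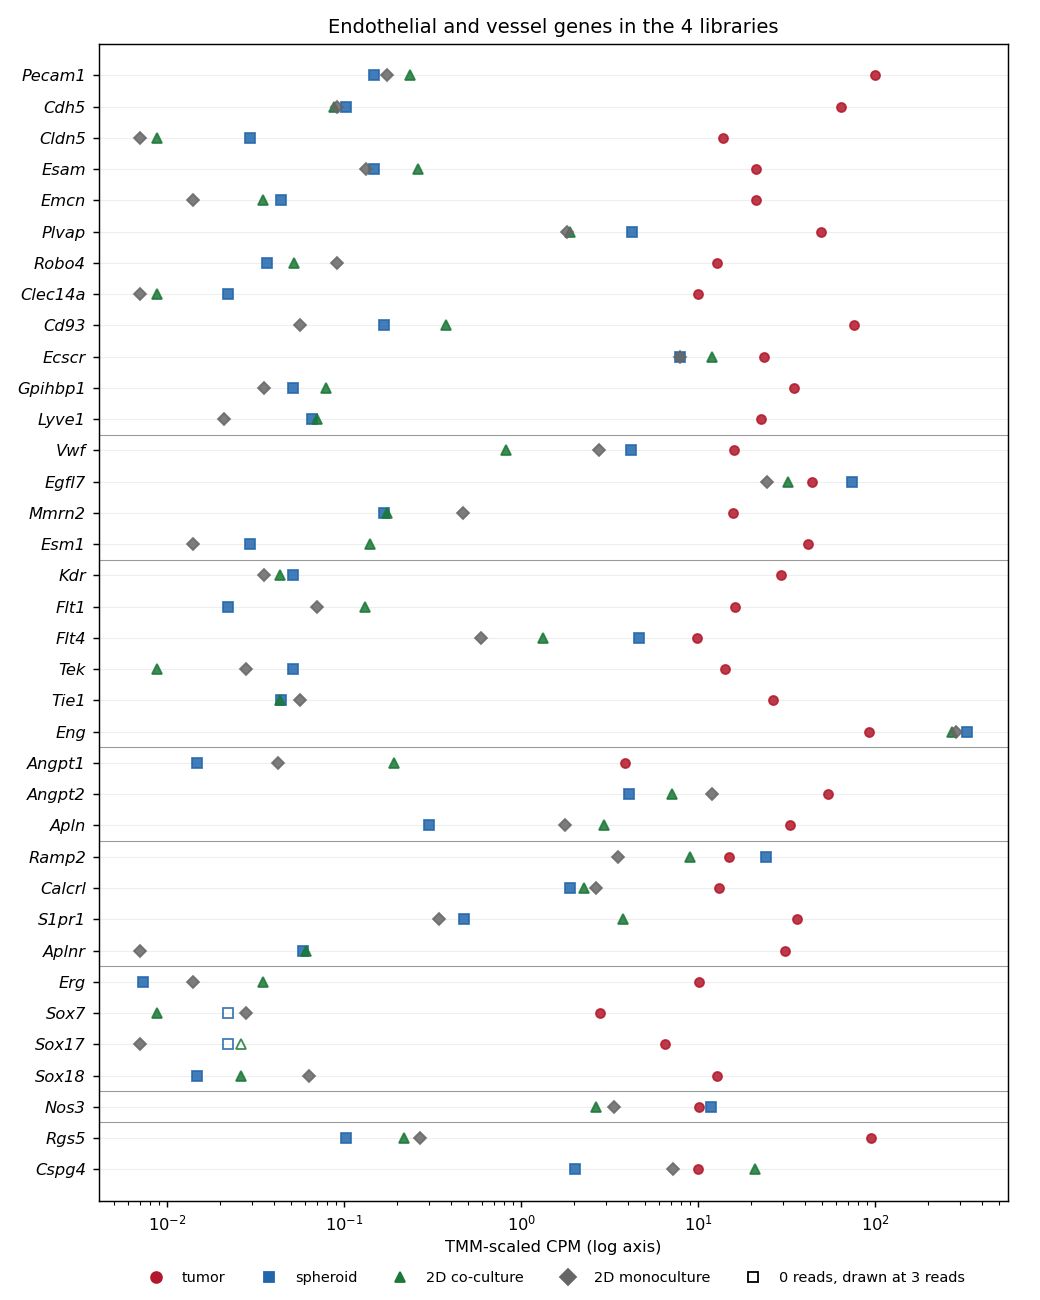
TMM-scaled CPM of the 36 endothelial and vessel genes in the 4 libraries, on a log axis, with 1 point per library and lines between the groups of genes by role; open symbols mark 0 reads, drawn at the level of 3 reads. The tumor point lies to the right of all 3 culture points for 31 genes, and Eng is the highest of the culture points at 328 CPM in the spheroids.

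The genes fell on both sides of 1 CPM in the cultures, a boundary set after their values were seen. Of the 36 genes, 23 stayed under 1 CPM in every culture and 13 reached it in at least 1, while 72.2% of the 16994 genes reached it. All 36 reached 1 CPM in the tumor, as did 13249 of the 16994 genes. For the 23 genes the median log2 ratio of the tumor was 8.90 against the monoculture, 8.56 against the co-culture and 8.88 against the spheroids. For the other 13 it was 2.17, 2.54 and 1.94.

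Among the junction proteins, Pecam1, an adhesion molecule at contacts between endothelial cells, stood at 99.4 CPM in the tumor, 0.147 in the spheroids, 0.236 in the co-culture and 0.175 in the monoculture. Cdh5, the cadherin of endothelial adherens junctions, stood at 64.2, 0.103, 0.0873 and 0.0912 CPM in the same order. The tumor values rested on 16138 and 10426 reads and the culture values on 10 to 27 reads. The culture libraries did not separate for either gene, since the interval of every ratio between cultures held 0. The log2 ratio of tumor to monoculture was 9.15 (8.58 to 9.77) for Pecam1 and 9.46 (8.68 to 10.37) for Cdh5.

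Cldn5, the main claudin of endothelial tight junctions, had 2242 reads in the tumor (13.8 CPM), 4 in the spheroids and 1 in each 2D culture. Its log2 ratio of tumor to spheroids was 8.88 (7.52 to 10.75), and 9.80 with the correction for GC content and length. Esam, an adhesion molecule of the same junctions, stood at 21.3 CPM in the tumor, 0.147 in the spheroids, 0.262 in the co-culture and 0.133 in the monoculture. Both genes thus had the tumor far above the cultures.

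The surface proteins of endothelium followed the same order of libraries. Emcn, a sialomucin of capillaries and veins, stood at 21.2 CPM in the tumor and between 0.0140 and 0.0441 in the cultures. Robo4, a receptor that stabilises vessels, stood at 12.8 CPM against 0.0367 to 0.0912, and Clec14a, a lectin-like surface protein, at 9.92 CPM against 0.00702 to 0.0220. In the cultures, Clec14a had 3 reads at most. Gpihbp1, which carries lipoprotein lipase to the capillary lumen, stood at 34.6 CPM in the tumor and at 0.0514, 0.0786 and 0.0351 in the spheroids, the co-culture and the monoculture. Lyve1, the hyaluronan receptor of lymphatic endothelium that some macrophages also carry, stood at 22.5 CPM in the tumor and between 0.0211 and 0.0699 in the cultures.

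Cd93, a surface receptor of endothelium that is also present on myeloid cells, stood at 75.8 CPM in the tumor, 0.169 in the spheroids, 0.376 in the co-culture and 0.0562 in the monoculture. Among the cultures it was highest in the co-culture, with a log2 ratio to the monoculture of 2.74 (1.64 to 4.04) on 43 and 8 reads.

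Plvap, which forms the diaphragms of fenestrated endothelium, reached 1 CPM in every culture, which none of these genes did. It stood at 49.6 CPM in the tumor, 4.25 in the spheroids, 1.88 in the co-culture and 1.81 in the monoculture, and was the most abundant member in the tumor per length, at 24.9 CPM per kb. Its ratio of spheroids to monoculture was 1.23 on the log2 scale (1.02 to 1.45), and 0.57 with a correction for GC content and length. Ecscr, an endothelial regulator of cell movement, stood at 23.6 CPM in the tumor, 7.89 in the spheroids, 12.0 in the co-culture and 7.92 in the monoculture. The tumor was 2.99-fold above the spheroids, 1.96-fold above the co-culture and 2.98-fold above the monoculture, a small margin beside the other surface genes.

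The proteins released or bound to matrix were of both kinds. Esm1, a proteoglycan of sprouting tip cells, stood at 41.6 CPM in the tumor, 0.0294 in the spheroids, 0.140 in the co-culture and 0.0140 in the monoculture. Its log2 ratio of tumor to spheroids, 10.47 (9.11 to 12.34), was the highest of the 36 genes with counts under 3 raised to 3. With the correction it was 9.36, below that of Tie1 at 10.99. Mmrn2, a matrix protein that binds Cd93 and Clec14a, stood at 15.8 CPM in the tumor and at 0.169, 0.175 and 0.470 in the spheroids, the co-culture and the monoculture. Its 67 reads in the monoculture were the most that any of the 23 genes had in a culture. Its log2 ratio to the monoculture was -1.48 (-2.23 to -0.78) in the spheroids and -1.43 (-2.23 to -0.69) in the co-culture.

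Vwf, the clotting protein that endothelium stores and that platelets also carry, stood at 15.95 CPM in the tumor, 4.15 in the spheroids, 0.821 in the co-culture and 2.77 in the monoculture. The tumor lay 3.85-fold above the spheroids and 19.4-fold above the co-culture for Vwf, and 11.4-fold and 38.0-fold with the correction for GC content and length. Egfl7, a secreted factor of growing vessels, stood at 43.9 CPM in the tumor, 74.0 in the spheroids, 32.1 in the co-culture and 24.5 in the monoculture. It was within 2-fold of the tumor in every culture with TMM scaling. Its log2 ratio of tumor to monoculture, 0.84, passed 2-fold at 1.08 with total counts, 1.09 with upper quartile factors and 1.42 with the correction, under which that of tumor to co-culture was 1.29. The log2 ratio of tumor to spheroids for Egfl7 was -0.75 (-0.80 to -0.71) and became 0.58 with the correction for GC content and length. Gm20532 covers 7.37% of the exon bases of Egfl7 on the same strand, and Agpat2, on the opposite strand, 1.79%.

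Of the 6 receptors, 4 were nearly unread outside the tumor. Kdr, the main signalling receptor for VEGF-A, stood at 29.5 CPM in the tumor, 0.0514 in the spheroids, 0.0437 in the co-culture and 0.0351 in the monoculture. Flt1, which binds and restrains VEGF-A, stood at 16.1, 0.0220, 0.131 and 0.0702 CPM in the same order. Tek, the angiopoietin receptor, stood at 14.1 CPM in the tumor and between 0.00873 and 0.0514 in the cultures, and its partner Tie1 at 26.4 CPM against 0.0437 to 0.0562. For Kdr these culture values rested on 5 to 7 reads. The log2 ratio of tumor to monoculture was 9.72 (8.49 to 11.34) for Kdr and 8.88 (7.90 to 10.09) for Tie1, and 10.39 and 9.87 with the correction.

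Flt4, the receptor for VEGF-C and VEGF-D on lymphatic and sprouting endothelium, was graded instead. It stood at 9.79 CPM in the tumor, 4.61 in the spheroids, 1.34 in the co-culture and 0.597 in the monoculture, on 1590, 628, 153 and 85 reads. The tumor was 2.12-fold above the spheroids, with a counting interval reaching down to 1.94-fold, and 16.4-fold above the monoculture. With the correction for GC content and length these folds were 5.63 and 36.9.

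Eng, a co-receptor for TGF-beta ligands on endothelium and on several mesenchymal cells, ran opposite to the rest. It stood at 92.4 CPM in the tumor, 328 in the spheroids, 270 in the co-culture and 285 in the monoculture. All 3 cultures lay above the tumor, by 3.55-fold, 2.93-fold and 3.09-fold, and within 0.28 of each other on the log2 scale. It was the most abundant member per length in each culture, at 66.8 to 81.1 CPM per kb against 22.8 in the tumor. With the correction for GC content and length its log2 ratio of tumor to monoculture moved from -1.63 to -0.67 and that of tumor to spheroids from -1.83 to -0.22, so that it no longer passed 2-fold.

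Among the ligands, Angpt1, the Tek agonist that pericytes and fibroblasts release, stood at 3.86 CPM in the tumor, 0.0147 in the spheroids, 0.192 in the co-culture and 0.0421 in the monoculture, and was the lowest member in the tumor per length at 0.742 CPM per kb. An antisense transcript, Gm17473, covers 14.2% of its exon bases. Angpt2, the context-dependent Tek ligand that sprouting endothelium releases, stood at 54.1 CPM in the tumor, 4.09 in the spheroids, 7.12 in the co-culture and 12.0 in the monoculture. Apln, the apelin peptide of tip cells, stood at 33.0, 0.301, 2.95 and 1.78 CPM. Both Angpt2 and Apln were thus read in the B16F10 monoculture and were lowest in the spheroids.

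Aplnr, the apelin receptor, had 4999 reads in the tumor (30.8 CPM), 8 in the spheroids, 7 in the co-culture and 1 in the monoculture. S1pr1, the sphingosine 1-phosphate receptor that tightens endothelial junctions, stood at 36.3 CPM in the tumor, 0.477 in the spheroids, 3.78 in the co-culture and 0.344 in the monoculture. The RNA of Apln thus reached 1 CPM in the co-culture and the monoculture but not in the spheroids, whereas that of its receptor stayed under 1 CPM in every culture.

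Calcrl and Ramp2, which join into the adrenomedullin receptor, also differed. Calcrl stood at 13.1 CPM in the tumor, 1.88 in the spheroids, 2.25 in the co-culture and 2.63 in the monoculture, and the tumor was between 4.97-fold and 6.95-fold above the cultures, or between 3.21-fold and 3.45-fold with the correction. Ramp2 stood at 14.9, 24.1, 8.95 and 3.52 CPM. The spheroids were thus above the tumor for Ramp2, by 1.61-fold, but the log2 ratio of tumor to spheroids moved from -0.69 to 0.56 with the correction for GC content and length. Vps25 covers 33.4% of the exon bases of Ramp2 on the same strand and stood at 81.1, 163, 141 and 101 CPM, so reads of the overlap may have been assigned to either gene.

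All 4 transcription factors were close to unread in the cultures. Erg, the ETS factor that maintains endothelial identity, had 1635 reads in the tumor (10.1 CPM), 1 in the spheroids, 4 in the co-culture and 2 in the monoculture. Sox17 had 1054 reads (6.49 CPM), 0, 0 and 1, and, taking 3 reads for 0, was at least 295-fold higher in the tumor than in the spheroids and at least 248-fold higher than in the co-culture. The lower ends of the counting intervals of these folds were 239 and 201. Sox7 had 454 reads (2.80 CPM), 0, 1 and 4, at least 127-fold higher in the tumor than in the spheroids on the same basis (lower end 103), with a log2 ratio to the monoculture of 6.64 (5.27 to 8.52). Sox18 had 2084 reads (12.8 CPM), 2, 3 and 9. A processed transcript, Gm37587, covers 16.9% of the exon bases of Sox17.

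Nos3, the synthase of endothelial nitric oxide, was the member whose spheroid level was nearest that of the tumor. It stood at 10.1 CPM in the tumor, 11.9 in the spheroids, 2.64 in the co-culture and 3.36 in the monoculture, with a log2 ratio of tumor to spheroids of -0.23 (-0.33 to -0.13). That ratio turned to 0.12 with total counts in place of TMM and was 1.81 with the correction for GC content and length. The antisense transcript Gm15587 covers 25.2% of its exon bases and the opposite gene Atg9b 7.12%, and Atg9b stood at 0.788, 2.19, 1.26 and 1.81 CPM. Whether strand was used in counting is not given in the sources used here.

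The pericyte markers differed from each other. Rgs5, a signalling regulator of pericytes, stood at 94.9 CPM in the tumor, 0.103 in the spheroids, 0.218 in the co-culture and 0.267 in the monoculture. Cspg4, the NG2 proteoglycan of pericytes that melanoma cells also carry, stood at 9.98, 2.01, 21.0 and 7.24 CPM. The co-culture was 2.10-fold above the tumor for Cspg4. Its log2 ratio of tumor to co-culture, -1.07, was -0.80 with total counts and -0.94 with upper quartile factors, within 2-fold, and 0.16 with the correction for GC content and length.

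Traces of the 23 genes in the cultures were compared with those of other genes of the tumor. The comparison set held 62 genes outside every list used here, with at least 5000 reads in the tumor and under 0.03% of the tumor level in the monoculture. In the spheroids, the 23 genes stood at a median of 0.174% of their tumor level (quartiles 0.126% and 0.255%), and the 62 genes at 0.123% (0.102% and 0.178%). In the co-culture the medians were 0.230% (0.156% and 0.378%) and 0.188% (0.153% and 0.277%). The quartile ranges overlapped in both cultures. The 23 genes were chosen by low levels in these cultures, and the 62 by low levels in the monoculture under a rule drawn from earlier results of these data. Low shares were therefore set in part by the choice, and the overlap supports no reading of the traces. Of the 23 genes, 7 in the spheroids and 6 in the co-culture had 3 reads or fewer. In the monoculture the 23 genes stood at a median of 0.142% (0.0838% and 0.464%), while the 62 genes were low there by the rule. The source of these traces was not tested.

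**Figure D2:**
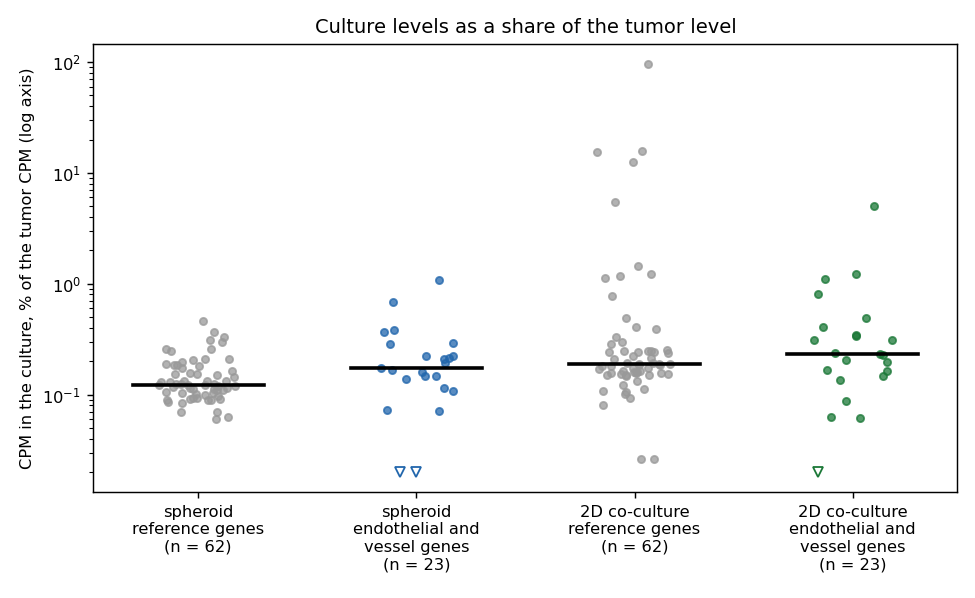
CPM in the spheroids and in the co-culture as a percentage of the tumor CPM, on a log axis, for the 23 endothelial and vessel genes under 1 CPM in every culture and for 62 comparison genes; each point is a gene, black lines are medians, and open triangles mark 0 reads. The medians are 0.174% and 0.123% in the spheroids and 0.230% and 0.188% in the co-culture, and 1 comparison gene reaches 95.3% in the co-culture.

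The tumor library also carried markers of many other cell types. All 9 fibroblast, 12 myeloid, 8 lymphoid, 5 skeletal muscle and 4 adipocyte markers were over 2-fold higher in it than in the monoculture, with median log2 ratios of 8.15, 11.48, 4.32, 11.73 and 10.58. Over all genes tested, 27.3% were higher and 18.1% lower in this comparison. Summed over each list, fibroblast markers stood at 3186 CPM in the tumor and between 8.66 and 655 in the cultures, myeloid markers at 2199 CPM against 10.9 to 30.0, and skeletal muscle markers at 4599 CPM against 3.28 to 12.4. The 36 endothelial and vessel genes summed to 1088 CPM in the tumor. In the 3 cultures they summed to 469, 370 and 355 CPM, of which Eng made up 328, 270 and 285. Of 8 melanocyte markers, 7 were within 2-fold of the monoculture and 1 was lower. Of 5 platelet markers, 2 were higher in the tumor, 1 was lower and 2 were within 2-fold. Of 4 erythroid markers only Alas2 reached 10 reads, at 12.2 CPM in the tumor and between 0.0441 and 0.0873 in the cultures. The 3 globin genes listed had no read in any library, and the reason was not tested. Xist, the RNA that coats the inactive X chromosome of female cells, stood at 69.9 CPM in the tumor and between 0.0491 and 0.262 in the cultures. The part of any of these cell types in the levels of the endothelial genes was not tested.

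Between cultures, some of the 13 genes with at least 1 CPM in a culture and some of the 23 low genes passed the 2-fold rule. Their counts are given beside the shares of all genes that passed it. Of all 36 genes, 9 were over 2-fold higher in the spheroids than in the monoculture (15.8% of all genes) and 8 were lower (20.4% of all genes). In the co-culture against the monoculture 10 were higher (9.74% of all genes) and 3 lower (13.1% of all genes). In the spheroids against the co-culture 6 were higher (13.3% of all genes) and 8 lower (14.1% of all genes). Over the same comparisons, the 23 low genes gave 4 higher and 5 lower, 6 and 2, and 0 and 5. The 13 genes gave 5 and 3, 4 and 1, and 6 and 3. Medians of the log2 ratios were 0.16 against 0.07 over all genes, 0.35 against 0.08 and -0.25 against -0.13 in the same order. The 0.07 and the -0.25 equal the ratio of a gene whose counts were raised to 3 in both libraries. Their distance from the medians beside them is therefore partly set by raising low counts. Counting error covered most of the ratios of the 23 low genes, since the interval held 0 for 19, 17 and 18 of them. For the 13 genes it held 0 for 2, 2 and 0. The 13 genes were set apart by their culture levels, and more reads give narrower intervals, so this split follows in part from the choice.

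The widest gaps between the spheroids and the monoculture among the 13 genes lay with Flt4, Ramp2 and Apln. The log2 ratio of spheroids to monoculture was 2.95 (2.62 to 3.29) for Flt4 and 2.77 (2.64 to 2.91) for Ramp2, and 2.74 and 2.07 with the correction for GC content and length. Flt4 and Ramp2 were also above the monoculture in the co-culture, by 1.16 (0.77 to 1.56) and 1.35 (1.19 to 1.51) on the log2 scale. Their order was thus spheroids, co-culture, monoculture, and no interval between neighbours held 0.

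Nos3 and Egfl7 were high in the spheroids but not in the co-culture. Their log2 ratios of spheroids to monoculture were 1.82 (1.67 to 1.97) and 1.60 (1.54 to 1.65), and both became 1.10 with the correction. Those of co-culture to monoculture were -0.35 (-0.56 to -0.14) and 0.39 (0.32 to 0.46). Vwf was 1.50-fold above the monoculture in the spheroids and was lower in the co-culture, with a log2 ratio of -1.75 (-2.09 to -1.42).

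Apln and Cspg4 ran the other way. The log2 ratio of spheroids to monoculture was -2.56 (-3.07 to -2.08) for Apln and -1.85 (-2.05 to -1.65) for Cspg4. In the co-culture both were above the monoculture, by 0.73 (0.49 to 0.97) and 1.53 (1.43 to 1.64), so that spheroids and co-culture were 3.29 and 3.38 apart on the log2 scale. Angpt2 was below the monoculture in both, at -1.55 (-1.69 to -1.41) in the spheroids and -0.75 (-0.87 to -0.63) in the co-culture.

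S1pr1 was the member with the widest gap between co-culture and monoculture among the 13 genes. Its log2 ratio was 3.46 (3.03 to 3.92) in the co-culture, on 433 and 49 reads, and 0.47 (-0.08 to 1.04) in the spheroids. Of the 23 low genes, 6 were also over 2-fold higher in the co-culture than in the monoculture, and 2 were lower. The 6 were Cd93, Angpt1, Esm1, Lyve1, Aplnr and Gpihbp1. Lyve1, Aplnr and Gpihbp1 had 8, 7 and 9 reads in the co-culture and 3, 1 and 5 in the monoculture. The log2 ratio of Angpt1 was 2.19 (0.84 to 3.78) on 22 and 6 reads, and that of Esm1 3.32 (1.23 to 6.48) on 16 and 2 reads as counted, or 2.73 with the 2 reads raised to 3. Fibroblast markers were higher in the co-culture for 7 of 9 genes and lower for 0, with a median log2 ratio of 2.54. In the spheroids 3 of 9 were higher and 3 were lower, with a median of 0.45. Myeloid markers were higher for 10 of 12 genes in the co-culture, with 1 lower, and for 8 of 12 in the spheroids. Over all genes, 9.74% were higher and 13.1% lower in the co-culture, and 15.8% were higher and 20.4% lower in the spheroids. Summed, the myeloid markers stood at 10.9 CPM in the co-culture, 27.2 in the spheroids and 30.0 in the monoculture. Their median in the monoculture was 0.0175 CPM. The part of fibroblasts or myeloid cells in these ratios was not tested.

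**Figure D3:**
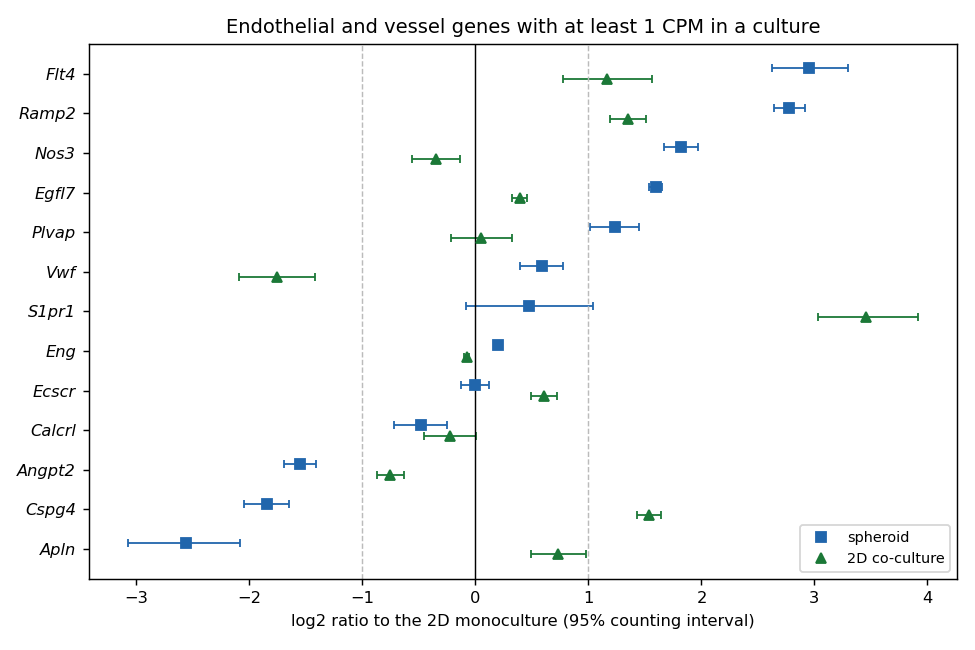
Log2 ratio to the 2D monoculture of the 13 genes with at least 1 CPM in a culture, for the spheroids and the 2D co-culture; bars are 95% intervals for counting error, and dashed lines mark 2-fold. Flt4 (2.95) and Ramp2 (2.77) lie farthest right in the spheroids and S1pr1 (3.46) in the co-culture, while Apln (-2.56) lies farthest left.

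Other vessel genes were counted by lists. Over all genes tested, 27.3% were higher in the tumor than in the monoculture and 18.1% were lower, and most of the lists are short. Levels in these lists are given with TMM scaling only, without the correction for GC content and length. That correction turned the sign of the ratio of tumor to spheroids for the members Egfl7, Ramp2 and Nos3. Of 7 VEGF ligands and co-receptors, 3 were higher in the tumor than in the monoculture, 1 was lower and 3 were within 2-fold, with a median log2 ratio of 0.72. Vegfa, the main attractant of sprouting vessels, stood at 177 CPM in the tumor, 453 in the spheroids, 167 in the co-culture and 107 in the monoculture. With TMM scaling Vegfa was therefore most abundant in the spheroids, which had 7 reads of its receptor Kdr. Pgf, a ligand of Flt1, stood at 35.6, 9.16, 1.82 and 3.83 CPM. Nrp1 stood at 74.9, 7.30, 16.1 and 20.2 CPM, and Nrp2, the partner of Flt4, at 185, 442, 599 and 435 CPM, so the tumor was the highest library for Nrp1 and the lowest for Nrp2.

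Of 13 genes of the Notch pathway in vessels, 7 were higher in the tumor, 2 lower and 4 within 2-fold, with a median log2 ratio of 2.15. Dll4, the tip-cell ligand, stood at 10.1 CPM in the tumor and between 0.148 and 0.264 in the cultures, and Notch4, an endothelial receptor, at 13.2, 2.48, 0.795 and 0.765 CPM. Notch3, the mural receptor, and Jag2, a ligand, were highest in the spheroids, at 43.6 and 27.2 CPM against 5.41 and 5.10 in the monoculture. Hes1, a target, stood at 5.59 CPM in the tumor and 29.5, 87.8 and 32.1 in the cultures. Notch1 stood between 8.04 and 13.8 CPM in all 4 libraries, so the pathway had no common order.

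Of 13 mural genes 10 were higher in the tumor, 1 lower and 2 within 2-fold, with a median log2 ratio of 5.21. Kcnj8 and Abcc9, the subunits of a pericyte potassium channel, stood at 6.77 and 14.5 CPM in the tumor, where the cultures had between 0 and 0.140 CPM. Acta2, smooth muscle actin, stood at 100 CPM in the tumor, 0.250 in the spheroids, 43.6 in the co-culture and 0.175 in the monoculture. It is also expressed by activated fibroblasts. Mcam, which B16F10 cells carried too, stood at 107, 56.6, 355 and 384 CPM.

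Of 10 genes of the vessel basement membrane 6 were higher in the tumor, 2 lower and 2 within 2-fold, with a median log2 ratio of 1.76. Col4a1, a chain of type IV collagen, stood at 291 CPM in the tumor, 220 in the spheroids, 89.3 in the co-culture and 43.7 in the monoculture. Lama5, a laminin chain, ran the other way at 12.9, 247, 60.1 and 51.2 CPM. Of 6 lymphatic genes 3 were higher, 1 lower and 2 within 2-fold. Prox1, the master regulator of lymphatic identity, stood at 1.42 CPM in the tumor and between 3.61 and 7.28 in the cultures, whereas Stab1, which macrophages also carry, stood at 92.9 CPM against 0.302 to 0.454.

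Of 10 genes for adhesion to blood cells 8 were higher in the tumor, 1 lower and 1 within 2-fold, with a median log2 ratio of 5.24. Icam2 stood at 16.5 CPM in the tumor and between 0.351 and 0.673 in the cultures. Cd34, a sialomucin of endothelium and of some fibroblasts, stood at 98.0, 0.316, 12.4 and 0.175 CPM. Sele and Selp, the selectins of activated endothelium, stood at 0.641 and 2.28 CPM in the tumor. The lists held further endothelial genes, of which 19 of 21 were higher, 1 lower and 1 within 2-fold (median log2 ratio 6.50), and endothelial transcription and ETS factors, of which 8 of 13 were higher, 3 lower and 2 within 2-fold (median 1.32). The ETS factors of the latter list were singled out after their values were seen. Ets1 stood at 257 CPM in the tumor, 546 in the spheroids, 703 in the co-culture and 532 in the monoculture, in contrast to Erg. Fli1 was like Erg, at 13.1, 0.0147, 0.0786 and 0.00702 CPM in the same order. Ets2 stood at 32.7, 32.4, 26.7 and 17.9 CPM and Elk3 at 52.0, 18.1, 61.6 and 24.5 CPM. Etv2 had 5 reads at most.

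**Figure D4:**
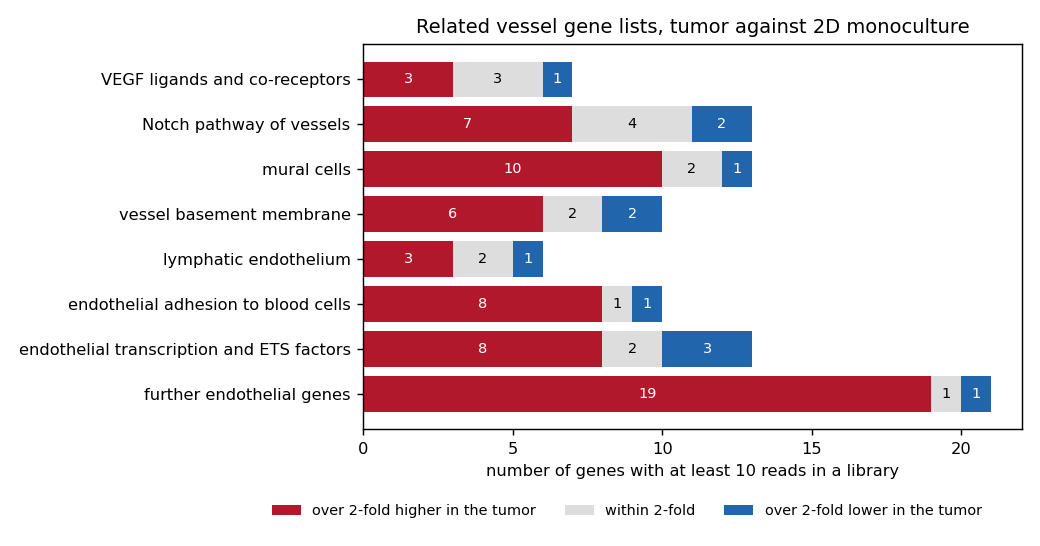
Number of genes over 2-fold higher, within 2-fold and over 2-fold lower in the tumor than in the 2D monoculture in 8 lists of related vessel genes, counting genes with at least 10 reads in a library. Further endothelial genes (19 of 21 higher), mural genes (10 of 13) and adhesion genes (8 of 10) were mostly higher, and VEGF ligands and co-receptors (3 of 7) were mixed. Over all genes tested, 27.3% were higher and 18.1% lower.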

How the data were processed

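Poly(A)-selected RNA was sequenced as paired-end reads from 4 libraries, 1 per condition. The authors deposited 1 table of raw read counts per gene, with no normalization. The submitters' processing notes name Trimmomatic, STAR, featureCounts and the build mm10, without versions; whether counting used strand is not given in the sources used here. Groups were taken from the sample titles. TMM factors were computed in edgeR 4.0.16 (R 4.3.3), and ratios, exact Clopper-Pearson intervals and medians in Python 3.11.15 with pandas 2.3.3 and scipy 1.17.1. Gene lengths, GC content and exon overlaps came from the GENCODE M21 annotation of GRCm38, which differs from the annotation the reads were counted on. By the naming rule all 36 genes were named, and genes of the VEGF ligand, Notch, mural, basement membrane, lymphatic and adhesion lists. The listed ETS factors Ets1, Fli1, Ets2, Elk3 and Etv2, and Alas2, Xist and genes overlapping a member, were named outside it. The 36 genes and all lists were chosen with earlier results of these data known. Alternatives were other scaling factors, a pseudocount, other filters and a stricter interval rule, and, added after seeing the data, a correction for GC content and length in 10 classes each.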

Additional observations from a re-analysis of the deposited data

How the results depend on the processing

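The counts of genes over 2-fold higher or lower and the median ratio were recomputed under 8 alternative settings, which gave 103 values, of which 86 stayed within 1.5 times the count or close to the median and 17 moved. The median kept its direction under every setting, while the ratios of tumor to spheroids for Nos3, Egfl7 and Ramp2 and of tumor to co-culture for Cspg4 turned sign under settings named beside them. For the tumor, the counts of lower genes went from 1 to 0 against the monoculture, from 2 to 0 against the co-culture and from 1 to 0 against the spheroids with the correction for GC content and length, which was chosen after seeing the data. Against the co-culture the count of lower genes was 1 with total counts, 1 with upper quartile factors and 1 where the counting interval had to lie beyond 2-fold. The median log2 ratio of tumor to monoculture was 7.49, and 3.68 with a pseudocount of 1 CPM, which is large beside the culture levels. Total counts moved the median over all genes for the same ratio from 0.07 to 0.31, and upper quartile factors to 0.32.

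The counts between cultures rested on few reads. With the pseudocount, genes higher and lower went from 9 and 8 to 4 and 3 for the spheroids against the monoculture and from 10 and 3 to 3 and 1 for the co-culture against the monoculture, and the lower genes for the spheroids against the co-culture from 8 to 3. Where the interval had to lie beyond 2-fold, the same counts were 5 and 3, 5 and 1, and 4. No paired analysis was possible because no condition has a second library, and no replicate was left out.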
